A study of Homo sapiens with 6 samples.

Results

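ID factors and the feedback genes of BMP and TGF-β signalling were followed in K562 cells, a human erythroid leukemia line, after overnight iron chelation. The group held 9 genes chosen by name, ID1, ID2, ID3, ID4, SMAD6, SMAD7, BAMBI, SKIL and TGIF1, of 62252 annotated genes in the files, and every transcript mapped to one of these names was summed into its gene. Polyadenylated RNA was sequenced from 3 libraries of cells given 10 µM 21H7, a cell-permeable iron chelator, overnight (Chelator) and from 3 libraries of cells given an equal volume of the solvent DMSO overnight (DMSO). Both groups were the same cell line, and the labels named no transgene or knockout in either. The labels did not say whether libraries of a group came from separate cultures, so p-values measured the spread between these libraries. They gave no batch.

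ID proteins are helix-loop-helix factors without a DNA-binding domain. They bind E proteins and related basic helix-loop-helix (bHLH) factors and keep them off DNA, and in many cell types their genes are switched on quickly by BMP through SMAD1, SMAD5 and SMAD9. Signalling by BMP, activin and TGF-β also raises its own brakes. SMAD6 and SMAD7 occupy the receptors, BAMBI is a receptor lacking a kinase, and SKIL and TGIF1 are nuclear repressors that bind the activated SMADs. In the liver, BMP signalling also links iron stores to hepcidin, the hormone that limits iron uptake.

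The libraries held between 78.6 and 90.4 M estimated counts in DMSO and between 85.4 and 101 M in Chelator (M, 1e+06). Fragments, sized from the effective lengths of transcripts without counts, averaged 252 to 264 bases in the DMSO libraries and only 200 to 218 bases after chelation. Fragment size and treatment therefore cannot be told apart here. All 8 erythroid and K562 markers were present in every library, and their summed level was 11630.4 to 12902 TPM (transcript abundance scaled for length and depth) in DMSO and 16345 to 17465 TPM in Chelator. That rise lay mainly in the globin genes HBG1, HBG2 and HBE1. KLF1 (77.8 to 87.4 TPM in DMSO, 47.7 to 52.9 in Chelator), EPOR (10.5 to 12.6, then 7.49 to 9.01) and TAL1 (48.7 to 61.7, then 42.9 to 46.1) were lower in Chelator without overlap. The 4 markers of other blood cells reported here (CD3E, CD14, MS4A1 and NCAM1) stayed under 1 TPM, with MS4A1 listed at 0 throughout. Their sum was 0.0958 to 0.372 TPM in DMSO and 0.519 to 0.721 TPM in Chelator, and the part of this shift in the results below was not tested. Of 3 markers of epithelium and fibroblasts, EPCAM lay at 62.3 to 68.8 TPM in DMSO and at 45.6 to 50.3 TPM in Chelator, COL1A1 lay at 0.502 to 0.646 TPM and then at 1.65 to 2.10 TPM, and CDH1 stayed under 1 TPM. The part of these shifts in the results was not tested either. DMSO replicate 2 stood apart from its group, with a chi-square per gene of 62.2 and 43.0 against the other two, which gave 8.24 between them. Chelator replicate 1 likewise gave 30.8 and 28.4, against 6.598 between the other two.

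Promoter letters are shown for 4 genes, because ID2 and SMAD7 were the members with the largest rise, and ID1 and SMAD6, relatives of each, did not share it. Each sequence is the 250 bases before the start of the gene's canonical transcript, from RefSeq on GRCh38.p14, read in the direction of transcription. Capitals mark ACGTG and GCGTG (or their reverse complements), the forms of the core to which hypoxia-inducible factors bind, and GTCTAGAC, the palindrome that SMAD3 and SMAD4 bind. The windows are chr20:31605039-31605288 on the plus strand (ID1), chr2:8681806-8682055 on the plus strand (ID2), chr15:66701986-66702235 on the plus strand (SMAD6) and chr18:48950966-48951215 on the minus strand (SMAD7).
ID1: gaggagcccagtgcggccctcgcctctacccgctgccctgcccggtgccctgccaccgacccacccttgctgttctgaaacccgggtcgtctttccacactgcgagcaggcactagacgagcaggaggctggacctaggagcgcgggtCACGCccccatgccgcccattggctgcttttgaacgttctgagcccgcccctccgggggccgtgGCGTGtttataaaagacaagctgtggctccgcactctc
ID2: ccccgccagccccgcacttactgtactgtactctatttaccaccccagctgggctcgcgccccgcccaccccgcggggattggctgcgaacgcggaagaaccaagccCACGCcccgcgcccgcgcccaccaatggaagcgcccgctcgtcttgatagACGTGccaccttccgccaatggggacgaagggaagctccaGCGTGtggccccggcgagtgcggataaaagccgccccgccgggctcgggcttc
SMAD6: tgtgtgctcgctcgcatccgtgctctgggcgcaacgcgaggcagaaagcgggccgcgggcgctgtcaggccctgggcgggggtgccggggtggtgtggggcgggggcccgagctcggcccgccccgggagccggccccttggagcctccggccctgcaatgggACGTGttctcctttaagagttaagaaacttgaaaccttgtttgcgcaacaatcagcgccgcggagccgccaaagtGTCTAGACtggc
SMAD7: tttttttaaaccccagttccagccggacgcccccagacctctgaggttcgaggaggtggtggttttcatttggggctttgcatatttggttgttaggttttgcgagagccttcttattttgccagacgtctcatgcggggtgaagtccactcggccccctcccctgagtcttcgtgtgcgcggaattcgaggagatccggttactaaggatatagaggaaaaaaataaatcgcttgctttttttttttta

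Both strands of the same window were searched for GTCTAGAC, for ACGTG and GCGTG, and for GGCGCC, a motif bound by BMP-activated SMADs. No match overlapped another, and GTCTAGAC and GGCGCC read the same on both strands. GTCTAGAC stood in the SMAD6 window, beside 64 (0.182%) of 35116 promoter windows of the same length. ACGTG stood in 3 of the 9 members' windows (ID2, SMAD6 and SKIL), and in 18.5% of all windows. GCGTG stood in 3 (ID1, ID2 and ID3), and in 32.2% of all windows. With either form counted, 5 of the 9 members' windows and 43.2% of all windows held the core. GGCGCC stood in 2 of the 9 (BAMBI, with 3 copies, and SKIL), and in 16.4% of all windows. The letters searched were not in the ID4, SMAD7 or TGIF1 windows. Sites outside these 250 bases, or before other starts of a gene, were not searched, so a window without a match does not show a promoter without the site. GC content was 66% for ID1, 69.2% for ID2, 68% for SMAD6 and 48% for SMAD7, against a median of 58% over all windows.

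Of the 9 members, all entered the test and 8 received an adjusted p. ID2 and SMAD7 were called higher in Chelator (2 members), where a call needed a DESeq2 adjusted p under 0.05 and a log2 fold change above 1. Over all genes with an adjusted p, 8.18% were called higher and 2.6% were called lower, and no member was called lower by DESeq2 or by edgeR. At the adjusted p alone, 4 members were higher (ID2, SMAD7, SKIL and TGIF1) and 1 was lower (ID1), beside 19.5% of all genes higher and 18.3% lower. At an unadjusted p under 0.05 the count was 6 members, the sixth being ID3, beside 41.6% of all genes. The 3 values of each group did not overlap for 5 members on the higher side and 1 on the lower, against 24.8% and 22.5% of all genes tested. The median log2 fold change of the members with an adjusted p was 0.37, and that of all genes was 0.02. As the RNA came from whole cultures, fewer expressing cells and less RNA per expressing cell cannot be told apart.

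**Figure D1:**
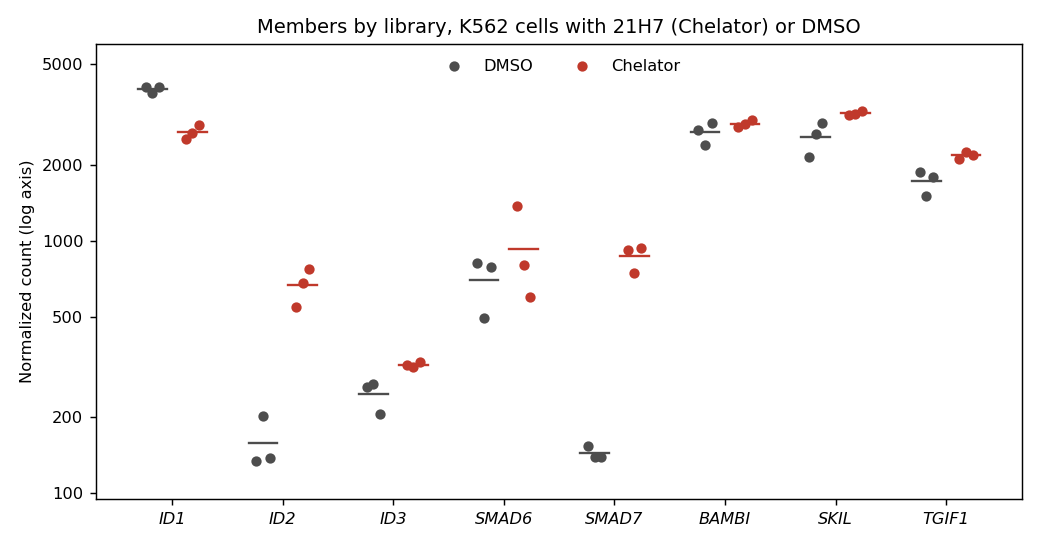
Normalized count (log axis) of 8 members in each library, with DMSO in grey, Chelator in red and a bar at the group mean. The Chelator points of ID2 and SMAD7 lie far above DMSO, those of ID1 lie below, and those of SMAD6 and BAMBI overlap the DMSO points; ID4, with 4 counts at most in a library, is left out.

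ID1 fell and ID2 rose, while ID3 and ID4 did not pass the test. ID1 (chr20:31605283-31606515, plus strand), which in K562 cells was by far the most abundant of the family, had normalized counts of 4061, 3827 and 4040 in DMSO and of 2517, 2674 and 2874 in Chelator. All 3 Chelator libraries lay below all 3 DMSO libraries. ID1 fell 1.48-fold (log2 scale, -0.56 ± 0.08, SE, n = 3 per group), and the DESeq2 adjusted p was 1.28e-10. Normalized counts are estimated counts divided by library size and by the average effective length of the gene's transcripts.

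ID2 (chr2:8678845-8684461, plus strand), the family member best known for its part in lymphoid and myeloid cells, had 134, 202 and 138 normalized counts in DMSO. In Chelator the 3 libraries held 547, 681 and 770.2, all above the highest DMSO library. ID2 rose 4.23-fold (log2 scale, 2.08 ± 0.20, SE), and the DESeq2 adjusted p was 2.21e-23. Of the libraries that stood apart, dropping DMSO replicate 2 gave a log2 fold change of 2.29 and dropping Chelator replicate 1 gave 2.21. The long noncoding RNA ID2-AS1 overlaps ID2 on the other strand and holds 4.36% of the 31-base words of ID2, where 8.04% occur in other genes in all. It had 27, 16 and 7 estimated counts in DMSO and 86, 79 and 64 in Chelator, against 147, 173 and 131 and then 615, 769 and 677 for ID2. Reads of the letters shared with ID2-AS1 cannot be told apart unless the counting used strand, which was not given in the sources used here.

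ID3 (chr1:23557926-23559501, minus strand) had 263, 271 and 207 normalized counts in DMSO and 323, 315 and 331 in Chelator. The groups did not overlap, but the log2 fold change of 0.39 ± 0.18 (SE) did not pass the test (DESeq2 adjusted p = 0.0767), and its 95% interval ran from 0.03 to 0.74. ID3 passed with TMM size factors (DESeq2 adjusted p = 0.0418) and without the length offset (0.0112). ID4 (chr6:19837370-19842197, plus strand) held 0, 0 and 2 estimated counts in DMSO and 4, 2 and 3 in Chelator. These counts lie at or near the floor of 3 counts, and no fold change is given.

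In TPM, which allows levels of different genes to be compared, ID1 lay at 55.9, 62.5 and 56.4 in DMSO and at 36.5, 41.1 and 43.0 in Chelator. ID2 lay at 2.01, 3.61 and 2.11 TPM in DMSO and at 8.69, 11.5 and 12.6 TPM in Chelator. ID1 thus made up 89.8% ± 1.73 (SD, n = 3) of the family's summed TPM in DMSO and 71.1% ± 1.08 in Chelator. The share of ID2 was 3.91% ± 1.01 in DMSO and 19.2% ± 1.78 in Chelator. The TPM ratio of ID1 to ID2 was 27.7, 17.3 and 26.7 in DMSO and 4.21, 3.59 and 3.41 in Chelator, so ID1 stayed above ID2 in every library. The summed TPM of the family was 64.9 ± 5.30 in DMSO and 56.6 ± 5.50 in Chelator, and the highest Chelator library, at 61.2 TPM, lay just below the lowest DMSO library, at 61.8 TPM.

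The inhibitory SMADs, which block type I receptors from inside the cell, differed from each other. SMAD7 (chr18:48919853-48950965, minus strand), which acts on TGF-β, activin and BMP receptors alike, had normalized counts of 154, 139 and 139 in DMSO. In Chelator it had 922, 744 and 934, and every Chelator library exceeded every DMSO library. SMAD7 rose 6-fold (log2 scale, 2.58 ± 0.16, SE), the largest change among the members with an adjusted p, and the DESeq2 adjusted p was 3.63e-56.

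SMAD6 (chr15:66702236-66782849, plus strand), which acts mainly on BMP receptors, had 814, 495 and 788 normalized counts in DMSO and 1365, 801 and 601 in Chelator. The groups overlapped, and the log2 fold change of 0.40 ± 0.41 (SE) did not pass (DESeq2 adjusted p = 0.503; 95% interval from -0.41 to 1.21). The value turned on single libraries: it was 0.0095 without Chelator replicate 1 (DESeq2 adjusted p = 0.982), 0.20 without DMSO replicate 2 and 0.63 without Chelator replicate 3 (DESeq2 adjusted p = 0.0524). The estimated counts, scaled for neither depth nor length, did not overlap, with 685, 641 and 559 in DMSO and 958, 1079 and 823 in Chelator. Without the length offset SMAD6 passed, with a log2 fold change of 0.37 ± 0.11 (SE) and a DESeq2 adjusted p of 0.00200. The average effective length of SMAD6 swung within both groups: it ranged from 2457 to 3959.9 bases under DMSO, and the Chelator libraries spanned 1944 to 4065. It moved with the share given to SMAD6-204, a transcript of 573 bases annotated for nonsense-mediated decay. That share was 41.1%, 0% and 44% of the gene's TPM in DMSO and 61.2%, 27.7% and 0% in Chelator. SMAD6-201, the 3828-base coding transcript, lay at 1.74, 1.88 and 1.5 TPM in DMSO and at 1.81, 2.08 and 1.90 TPM in Chelator, and its groups overlapped. In TPM the ratio of SMAD7 to SMAD6 was 0.208 ± 0.0544 (SD, n = 3) in DMSO and 1.02 ± 0.437 in Chelator, with the spread of SMAD6 carried into it.

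BAMBI (chr10:28677510-28682932, plus strand), the kinase-lacking decoy receptor, had 2734, 2391 and 2912 normalized counts in DMSO and 2822, 2885 and 2999 in Chelator. The groups overlapped and the log2 difference was 0.12 ± 0.09 (SE; DESeq2 adjusted p = 0.368), with a 95% interval from -0.07 to 0.30. Without DMSO replicate 2 the difference was 0.036, and without DMSO replicate 3 it was 0.18. BAMBI passed under none of the 16 alternatives tried.

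TGIF1 (chr18:3411608-3459978, plus strand), a homeodomain repressor that joins SMAD2 and SMAD3 on DNA, had 1860.4, 1508 and 1782 normalized counts in DMSO and 2110.2, 2252 and 2182 in Chelator. No values overlapped, and TGIF1 rose 1.27-fold (log2 fold change 0.35 ± 0.10, SE; DESeq2 adjusted p = 0.00274). Of the 16 alternatives it failed the test under 1, when log2 fold changes were centred on the mean (DESeq2 adjusted p = 0.0780).

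SKIL (chr3:170357342-170396835, plus strand), which encodes the SMAD repressor SnoN, had 2151, 2642 and 2929 normalized counts in DMSO and 3149, 3162 and 3267 in Chelator. The groups did not overlap, and SKIL was 1.24-fold higher, with a log2 fold change of 0.31 ± 0.11 (SE) and a DESeq2 adjusted p of 0.0157. This direction rested on the length offset. Before scaling for length or depth, the estimated counts were 2606, 3174 and 2720 in DMSO and 3649, 2873 and 2297 in Chelator, and they overlapped. Without the offset the log2 fold change was -0.18 ± 0.13 (SE; DESeq2 adjusted p = 0.267). SKIL transcripts had an average effective length of 4615, 4640.2 and 4059 bases under DMSO, and of 4052, 2809 and 2632 under the chelator, with all Chelator values lower. The 3 transcripts above 7 kb, which range from 7155 to 7528 bases, summed to 5.88, 8.69 and 7.19 TPM in DMSO and to 7.55, 6.19 and 5.51 TPM in Chelator, and these values overlapped. Leaving out DMSO replicate 1, Chelator replicate 2 or Chelator replicate 3 also left SKIL short of the threshold (DESeq2 adjusted p = 0.0847, 0.0631 and 0.0815). The log2 fold changes there were 0.19, 0.32 and 0.30. With GC and length trends removed the value was 0.56 (DESeq2 adjusted p = 1.76e-06). In all SKIL passed under 9 of the 16 alternatives, and also failed with centring on the mean (0.142) and with limma on log2(TPM + 0.1) or log2(TPM + 1) (0.118 and 0.135).

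**Figure D2:**
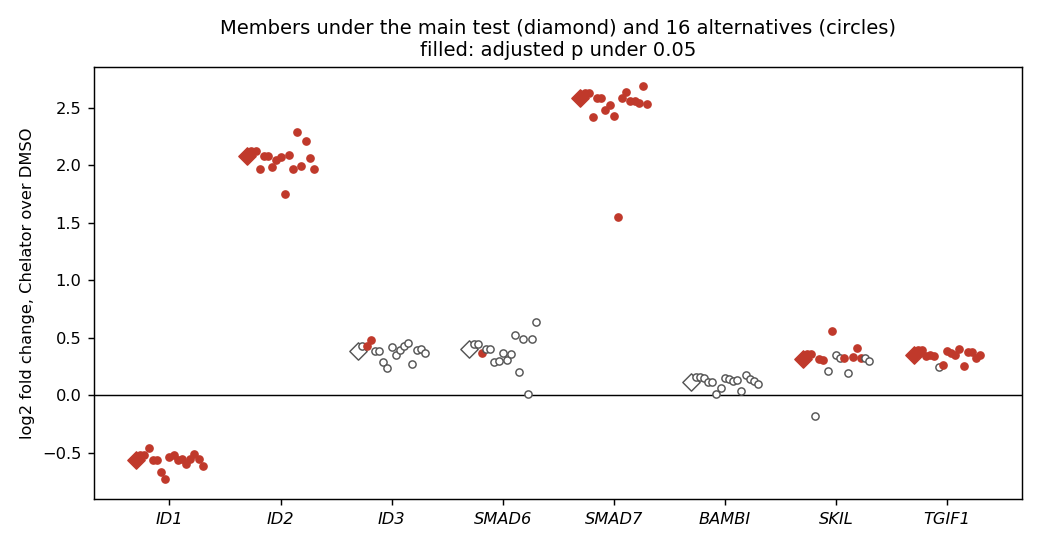
Log2 fold change of 8 members under the reported test (diamonds) and under 16 alternatives (circles), filled where the adjusted p was under 0.05. ID1, ID2 and SMAD7 are filled throughout, SMAD6 and ID3 are filled under 1 and 2 alternatives, and 1 open circle of SKIL lies below 0.

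By mean TPM in DMSO the members ran ID1 (58.3), TGIF1 (24.1), BAMBI (22.6), SKIL (8.97), ID3 (4.10), SMAD6 (3.02), ID2 (2.58), SMAD7 (0.609) and ID4 (0.00309). Only the neighbours ID3 and SMAD6 and the neighbours SMAD6 and ID2 overlapped between libraries. In Chelator the order was ID1 (40.2), TGIF1 (31.4), BAMBI (25.1), SKIL (11.3), ID2 (10.9), ID3 (5.43), SMAD6 (4.10), SMAD7 (3.73) and ID4 (0.0123). There SKIL overlapped with ID2, ID3 with SMAD6 and SMAD6 with SMAD7. ID2 moved from the seventh place to the fifth, and SMAD7 moved from well below SMAD6 into its range.

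Transcript usage was tested in 6 members with at least 2 transcripts of sufficient counts. None was called by edgeR's diffSpliceDGE, where 9.22% of 11938 genes were called, and 1 of them, SKIL, had an unadjusted p under 0.05 in that quasi-likelihood test (edgeR adjusted p = 0.179). The likelihood ratio test of the same tool called 1 member, SKIL (edgeR adjusted p = 5.6e-13), beside 19.0% of all genes tested. limma's diffSplice called 1, BAMBI (adjusted p = 0.0262), beside 26.7%. Without DMSO replicate 2 the quasi-likelihood test called ID2 (edgeR adjusted p = 0.00401), beside 7.94% of all genes.

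For SKIL, SKIL-203 was at 0% of the gene's TPM in every DMSO library and at 10.2%, 4.58% and 12.2% in Chelator. SKIL-207, a coding-annotated transcript of 607 bases, held 1.16%, 0% and 0% in DMSO and 3.11%, 16.6% and 16.6% in Chelator. SKIL-201, the canonical transcript, held 41.1%, 45.1% and 22% in DMSO and 36.0%, 25.4% and 0% in Chelator. SKIL-205, also above 7 kb, held 42.8%, 37.3% and 52.2% in DMSO and 33.7%, 28.4% and 47.6% in Chelator, and its groups overlapped.

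BAMBI-202, a form that keeps an intron, held 16.5%, 14.6% and 12.0% of BAMBI in DMSO and 20.2%, 19.9% and 20.8% in Chelator, without overlap (edgeR diffSpliceDGE adjusted p = 1). ID1-201, which is a single exon that runs through the intron of ID1-202, held 6.53%, 4.80% and 5.43% in DMSO and 7.80%, 9.95% and 12.4% in Chelator (edgeR diffSpliceDGE adjusted p = 0.864; limma diffSplice adjusted p = 0.0223, with a share change of 4.47 points, under the 5 needed for a call). These values did not overlap either. The level of ID1-201 was 3.65, 3 and 3.06 TPM in DMSO and 2.85, 4.09 and 5.34 TPM in Chelator, whereas the spliced ID1-202 was at 52.2, 59.5 and 53.4 TPM and then at 33.7, 37.1 and 37.7 TPM.

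ID2-202, a 623-base transcript, was at 0% of ID2 in DMSO replicates 1 and 3 and at 40.6% in DMSO replicate 2, and it held 16.8%, 22.8% and 34.4% in Chelator. SMAD7-202, a form that keeps an intron, was at 0% in DMSO and held 24.8%, 0% and 35.5% in Chelator. The coding transcript SMAD7-201 alone lay at 0.612, 0.629 and 0.497 TPM in DMSO and at 2.50, 3.25 and 2.05 TPM in Chelator, without overlap. The shares of TGIF1 were spread over many coding transcripts, of which TGIF1-222 was the largest, with 33.8% ± 3.47 (SD, n = 3) in DMSO and 37.2% ± 0.438 in Chelator. SMAD7 and ID3 had too few transcripts with counts for this test, and ID3-201 held at least 97.2% of ID3 in every library.

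**Figure D3:**
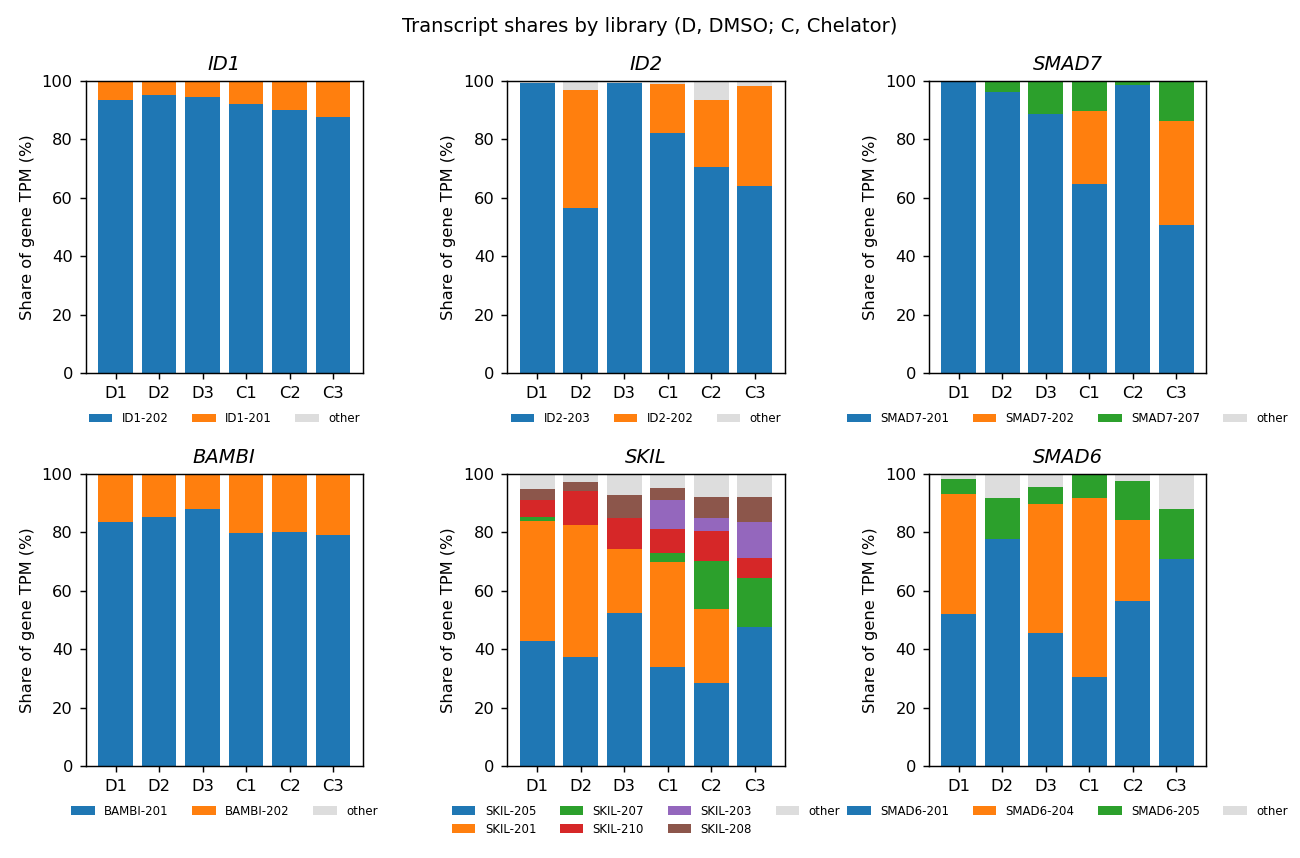
Share of each gene's TPM given to its transcripts, in percent, in the 3 DMSO (D) and 3 Chelator (C) libraries; transcripts under 5% in both group means are summed as other. ID1-201 and BAMBI-202 take a larger share in every Chelator library, SKIL-203 is seen in Chelator libraries alone, and SMAD6-204 runs from 0% to 61.2% with no split by group.

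The rest of the BMP and TGF-β pathway was read from 6 lists, of which 70 genes are reported here and 61 received an adjusted p. In Chelator 18 (29.5%) were higher and 13 (21.3%) lower at a DESeq2 adjusted p under 0.05, and the other 30 did not pass, beside 19.5% higher and 18.3% lower over all genes. Their median log2 fold change was 0.08, beside 0.02 for all genes.

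Among ligands, 5 of 17 genes rose, 1 fell and 11 did not pass. GDF15, a distant family member known as a stress-induced hormone, went from 1542 ± 76.3 (SD, n = 3) to 18432 ± 357 normalized counts, a log2 fold change of 3.58 ± 0.07 (SE). INHBE, an activin subunit gene, rose by 2.42 ± 0.12 on the log2 scale (DESeq2 adjusted p = 2.00e-87). TGFB1, the ligand with the highest TPM in DMSO, rose by 0.54 ± 0.07 on that scale, from 123 to 183 TPM. In Chelator GDF15 lay above it, at 203 TPM. INHA, the inhibin alpha subunit, was low, with 40.9 ± 11.8 and 88.5 ± 11.6 normalized counts, and its DESeq2 adjusted p of 0.00726 became 0.0593 without Chelator replicate 3. INHBA rose from 0.00337 to 0.0675 TPM and GDF11 fell from 15.1 to 11.5 TPM, and both are named after their values were seen.

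Among 14 receptors and co-receptors with an adjusted p, 5 rose, 4 fell and 5 did not pass. ACVR1, a type I receptor for BMPs and activins, rose from 821 ± 98.0 to 2265 ± 156 normalized counts (log2 fold change 1.46 ± 0.11, SE; DESeq2 adjusted p = 6.19e-36). ACVR1B, an activin type I receptor, rose by 0.82 ± 0.09 on the log2 scale. ACVR2A, a type II receptor, fell by 1.51 ± 0.26 on that scale, and TGFBR1, the type I receptor with the highest TPM of the list, fell by 0.41 ± 0.09. Without the length offset the value of ACVR2A was -0.92, short of a call, and TGFBR1 did not pass with limma on log2(TPM + 0.1) or log2(TPM + 1) (adjusted p = 0.0659 and 0.0789). The value of TGFBR1 ran from -0.19 with GC and length trends removed to -0.60 without the length offset. ACVR1C, at 46.3 ± 14.0 and 97.5 ± 40.3 normalized counts, had a DESeq2 adjusted p of 0.0245, which became 0.130 without DMSO replicate 1, 0.0532 without Chelator replicate 1 and 0.239 without Chelator replicate 2. It also failed without the length offset (log2 fold change 0.54, DESeq2 adjusted p = 0.221), with the replicate block (0.0552) and with limma on log2(TPM + 0.1) or log2(TPM + 1) (0.147 and 0.142).

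None of the SMADs that carry the signal was called, and those with an adjusted p under 0.05 changed little. SMAD3 rose by 0.42 ± 0.08 (SE) on the log2 scale, and SMAD2, the most abundant by TPM, fell by 0.23 ± 0.07, and did not pass with limma on log2(TPM + 0.1) (adjusted p = 0.0545). Without the length offset the log2 values were 0.23 for SMAD3 and -0.43 for SMAD2, and both passed. SMAD5 fell by 0.43 ± 0.09 on that scale, from 26.0 to 19.6 TPM. SMAD4, the shared partner, had a log2 fold change of 0.22 ± 0.08 and a DESeq2 adjusted p of 0.0166, which became 0.0831 without DMSO replicate 1, 0.0518 without Chelator replicate 1 and 0.0506 with the replicate block. It also failed with centring on the mean (0.328) and with limma on log2(TPM + 0.1) or log2(TPM + 1) (0.0811 and 0.0857), and its value was -0.06 without the length offset. SMAD1 and SMAD9, the other BMP SMADs, were near 0, with mean normalized counts of 3.95 and 9.36 in DMSO and 12.8 and 15.3 in Chelator, and neither passed. SMAD5 was thus the BMP SMAD with the highest level in these cells.

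Among extracellular inhibitors and binding proteins 2 of 7 genes rose and 5 did not pass. Both were latent TGF-β binding proteins, which hold the ligand in the matrix: LTBP3 rose by 0.90 ± 0.09 (SE) and LTBP1 by 0.36 ± 0.08 on the log2 scale. Without the length offset the values were 1.26 for LTBP3 and 0.18 for LTBP1, and both passed. Of 11 intracellular repressors, ubiquitin ligases and other regulators outside the members, 2 rose and 5 fell. WWP1, a ubiquitin ligase, fell by 0.69 ± 0.13, and the repressors SKI and TGIF2, relatives of SKIL and TGIF1, fell by 0.37 ± 0.08 and 0.35 ± 0.09 on the log2 scale. USP15, a deubiquitinase of SMADs and receptors, fell by 0.28 ± 0.07, and RNF111, a ubiquitin ligase that removes SKIL and SMAD7 protein, rose by 0.35 ± 0.10. RNF111 did not pass without the length offset (DESeq2 adjusted p = 0.0890) or with centring on the mean (0.0547). The other that rose was PMEPA1, at 0.00900 TPM in DMSO and 0.0881 TPM in Chelator, named after its values were seen.

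Target genes outside the members reported here gave 2 genes that rose, 1 that fell and 3 that did not pass. KLF10, an early TGF-β response gene, rose by 1.76 ± 0.09 (SE) and HEY1, which answers to BMP and Notch, rose by 1.37 ± 0.13 on the log2 scale. MSX1, a BMP target, fell by 0.48 ± 0.14 on the log2 scale, and did not pass with limma on log2(TPM + 0.1) or log2(TPM + 1) (adjusted p = 0.0959 and 0.123). GATA2, the highest of the list by TPM, had a log2 fold change of -0.13 ± 0.07 that did not pass (DESeq2 adjusted p = 0.140) but passed without DMSO replicate 2 (0.00968), with centring on the mean (-0.23, 0.0142) and with GC and length trends removed (-0.25, 1.17e-05). Each of these genes is also known to answer to signals other than BMP and TGF-β.

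Partners of the ID proteins and members of their erythroid complex gave 1 gene that rose (11.1% of 9), 4 that fell (44.4%) and 4 that did not pass, against the same 19.5% and 18.3% of all genes, and none was called. TCF3, which encodes the E proteins E12 and E47, was the highest at 199 TPM in DMSO and fell by 0.31 ± 0.06 (SE) on the log2 scale. LMO2 fell by 0.72 ± 0.07 and LDB1 by 0.60 ± 0.07, both bridging proteins of the complex with TAL1. The average effective length of LMO2 was 940 bases in DMSO and 1220 in Chelator. Its estimated counts, scaled for neither depth nor length, overlapped between the groups. HES1, a bHLH repressor, rose by 0.65 ± 0.10. By TPM, TCF3 stood above the summed ID family in both groups, with 163 TPM in Chelator against 56.6 TPM for the family.

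**Figure D4:**
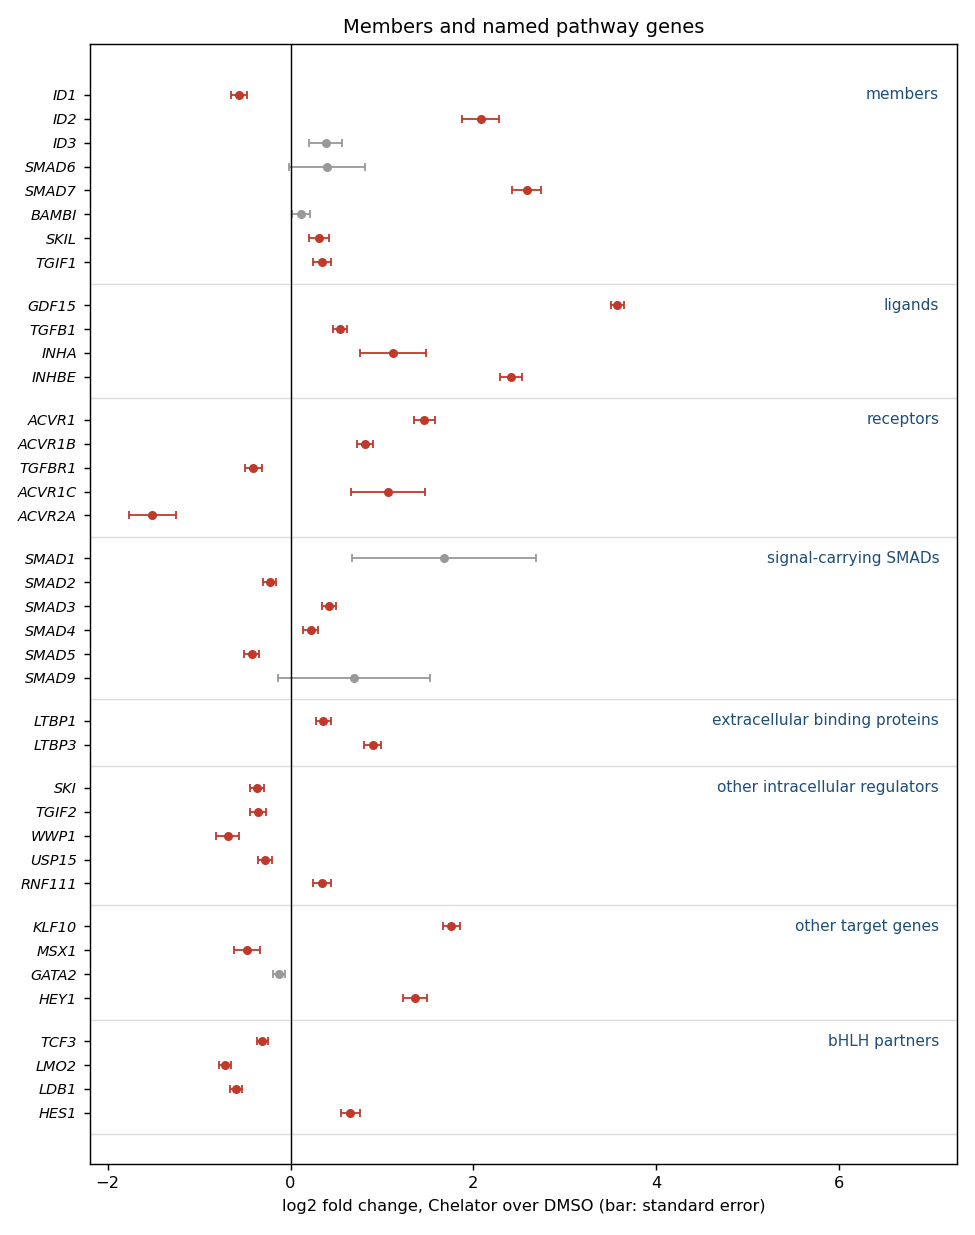
Log2 fold change (Chelator over DMSO, bar for the standard error) of the members and of the named genes of each list, in red where the adjusted p was under 0.05 and in grey otherwise. GDF15 (3.58), SMAD7 (2.58), INHBE (2.42) and ID2 (2.08) lie farthest to the right, and ACVR2A (-1.51) farthest to the left.

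The genes with a pattern most like each ID gene were sought among 13491 others with a mean of at least 100 normalized counts, by the root mean square difference of the log2 ratio to the DMSO mean over the 6 libraries. For ID1 these were GNB1L (0.0268) and ZNF512B (0.0276). ID3 lay nearest to NR2F2-AS1 (0.0460) and MBD6 (0.0526). ID2 had no neighbour as close, the nearest being TRBC2 (0.178) and ABTB2 (0.179), whose log2 fold changes were 2.11 and 1.96. ID2 also had the largest change of the ID genes compared, and the part of this in its distance was not tested.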

How the data were processed

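The authors quantified paired-end reads of 6 polyadenylated RNA libraries with salmon 1.10.2. The deposited files give estimated counts per transcript, TPM values (the authors' estimated counts divided by effective length and scaled to an equal sum per library) and salmon's other length columns. The transcript annotation and strand setting were not given in the sources used here. Transcripts were matched to GENCODE release 44 on GRCh38. Of 252045 transcripts, 433 had no match, with at most 0.150% of the counts of a library, and were left out.

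Counts were summed per gene and rounded. Genes with a total above 10 (26074) were tested with DESeq2 1.42.0 (R 4.3.3, Wald test, median-ratio size factors). The tool, test and count minimum follow the study's methods. An offset for effective length was added, which those methods do not state. Adjusted p-values are Benjamini-Hochberg over all genes with one (24542). Intervals of log2 fold changes are Wald 95% intervals. Transcript usage was tested with edgeR 4.0.16, using transcripts that reached 10 counts in 3 or more libraries, and a call needed a share change above 5 percentage points. limma 3.58.1 gave alternatives. The tests were tried on simulated data with known changes and the same spread set for every gene. This does not show how they perform on libraries as uneven as these.

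Named genes were all members, the 6 signal-carrying SMADs, and per list up to 4 genes with the largest change among those with a mean of at least 50 normalized counts and an adjusted p under 0.05. The gene of each list with the highest TPM, averaged over both groups, was added. Members, lists and tests were chosen with earlier results of these data known. Each library counted as 1 replicate. Counts of libraries of a group differed by more than sampling noise (chi-square per gene, 6.598 to 62.2), which does not show that they came from separate cultures. A gene of the pathway lists and a cell type marker are not reported here, and the counts leave them out.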

Additional observations from a re-analysis of the deposited data

How the results depend on the processing

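Of 607 values of 38 named genes under the 16 alternatives, 569 kept their direction and their side of an adjusted p of 0.05, 28 lost it, 6 gained it and 4 changed sign. The sign changes were SKIL (-0.18) and SMAD4 (-0.059) without the length offset, where the offset's removal is the sole difference, and SMAD9, near 0 counts, without the offset (-0.053) and without Chelator replicate 3, in a range from -0.098 to 1.095 over the libraries left out one at a time; the cause of the last was not tested. ID1, ID2 and SMAD7 passed under all 16; SMAD7 ranged from 1.55 (limma with log2(TPM + 1), where a pseudocount of 1 exceeds its DMSO level) to 2.69. The count of members passing fell from 5 to 3 when fold changes were centred on the mean, which moved the median of all genes from 0.02 to -0.08 (a shift of -0.10). With limma on log2(TPM + 1), 797 genes were called over the whole table against 2646. For transcript usage 1 member was called in place of 0 by limma's diffSplice, by the likelihood ratio test, which was added after seeing the data, and without DMSO replicate 2, with a range of 0 to 1 over the libraries left out.

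Libraries with the same number had correlations of -0.07, 0.13 and 0.11 between their deviations from the group mean. For the other pairs of a DMSO and a Chelator library these ran from -0.16 to 0.08. With so few libraries these values cannot tell whether the numbers pair the samples. With a replicate block 5 members passed, 2 were called higher and 2345 genes were called over the whole table. SMAD4 (adjusted p = 0.0506) and ACVR1C (0.0552) lost their pass with the block. ID4, SMAD1 and SMAD9 had few counts at this depth, so small differences in them were not detectable.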
